A study of Mus musculus with 8 samples.

Results

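Drosha, Dgcr8, Dicer1, Tarbp2, Prkra, Tnrc6a, Tnrc6b and Tnrc6c encode factors that make microRNAs or act with them in silencing. They were taken by symbol from the deposited table of gene expression, where each symbol belonged to 1 model, so that 8 of 56324 gene models are described here. The table was read for 8 mouse libraries of polyadenylated RNA, 4 from spermatocytes, the germ cells in meiosis, and 4 from spermatids, the haploid cells that form after it. Both groups carried the same genotype, Sam68 -/- on strain C57BL/6, and came from males aged 12 weeks. Sam68 is an RNA-binding protein encoded by Khdrbs1. No other agent or allele is named for either group, so cell type is the comparison these libraries allow. The cells had been separated by sedimentation at unit gravity (Sta-put), which sorts by size and not by a surface marker. Library numbers follow the order of the records within a cell type. The labels do not say whether libraries came from separate animals, and the p-values therefore measure a spread that may be technical.

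MicroRNAs are made in 2 cuts. Drosha, an RNase III enzyme, and its RNA-binding partner DGCR8 form the Microprocessor, which cuts a hairpin out of the primary transcript in the nucleus. The precursor is exported and cut in the cytoplasm by Dicer, which works with the double-stranded RNA-binding proteins TRBP (Tarbp2) and PACT (Prkra), and a strand of the product is loaded into an Argonaute protein. The TNRC6 proteins, vertebrate relatives of the fly protein GW182, bind Argonaute and recruit deadenylases to the silenced mRNA. In male germ cells Dicer and Argonaute proteins have been described in the chromatoid body, the cytoplasmic granule of spermatids.

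Values are normalized counts, that is, read counts divided by a size factor per library. Recovered read totals were 49000266 to 78060212 in spermatocytes and 60673309 to 93975960 in spermatids. A floor of 3 reads corresponded to 2.42 to 4.50 normalized counts, and the lowest value among the 8 genes was 94.3. Khdrbs1 gave 3421 to 4985 in spermatocytes and 625 to 1129 in spermatids, and its model may hold parts outside the deletion, so that these reads do not check the genotype. Of 10 round spermatid markers, 10 were higher in spermatids, whereas of 9 spermatocyte markers 3 were lower (Piwil1, Spo11 and Mlh3) and 1, Dmc1, was higher. The fractions also held RNA of other cells. Of 10 Sertoli cell markers 9 were lower in spermatids, with a summed level of 27785 to 138780 in spermatocytes and 1545 to 5190 in spermatids. Of 8 macrophage markers 7 were higher in spermatids, with a summed level of 783 to 3248 in spermatocytes and 2990 to 6287 in spermatids. Most of the sum in spermatocytes was Mrc1, the macrophage marker not called, with 666 to 3091 in spermatocytes and 568 to 1114 in spermatids. No marker of either list was at 0 in all libraries of a cell type. Of 5 Leydig cell markers 5 were lower in spermatids, and 4 of 5 peritubular myoid markers and 4 of 8 spermatogonial markers were higher. Summed levels in spermatocytes and spermatids were 3331 to 6997 and 185 to 1099 for Leydig cells, 1115 to 1815 and 17442 to 23818 for myoid cells, and 872 to 2008 and 2302 to 5077 for spermatogonia. The myoid sum in spermatids was mostly Actg2, which gave 540 to 725 in spermatocytes and 15615 to 22766 in spermatids. Acta2, Myh11 and Des also rose, at far lower levels, and Tagln was not called (log2 fold change -0.61). Spermatocyte library 4 stood apart in its own cell type for some markers. Its mean log2 level of spermatocyte markers was 12.91 against 13.69 to 13.81 in the other 3. Sycp1 was at 1653 normalized counts against 12680 to 26690, Sycp3 at 3303 against 15595 to 17490 and Hormad1 at 1395 against 6447 to 9289. By contrast, its summed level of the same list was the highest, 633032 against 517850 to 625741, as was its Piwil1 level, 166551 against 118349 to 141922. Most of that sum was Ldhc (235948), Ybx3 (213208) and Piwil1, and neither Ldhc nor Ybx3 was called. In such bulk fractions, fewer cells of a type and less RNA per cell cannot be told apart.

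A gene was called when limma's adjusted p (Benjamini-Hochberg over the 28735 models tested) was below 0.05 and the absolute log2 fold change, spermatids against spermatocytes, was at least 1. All 8 genes passed the filter on low values. Tnrc6b rose, Dgcr8, Prkra and Tnrc6c fell, and Drosha, Dicer1, Tarbp2 and Tnrc6a were not called. This made 1 higher and 3 lower of 8, where calls over all models were 62.3% in either direction, 32.5% higher and 29.8% lower. The same 4 genes had groups that did not overlap, 1 higher and 3 lower, beside 34.2% and 32.2% of all models. At any fold change 5 of 8 passed the p threshold, 1 higher (36.5% of all models) and 4 lower (35.8%), Tarbp2 being the one added. The counts of called genes were therefore near these shares of all models tested. The median log2 fold change was -0.58 over the 8 genes and -0.01 over all models tested. Over the 17015 models with a known GC content, 35.3% were called higher and 21.1% lower, and the median was 0.25. Scaling to equal total reads moved the median of all models to -0.44 and quantile normalization moved it to -0.36. The median of the 8 genes moved with them, to -1.02 and -0.97.

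**Figure D1:**
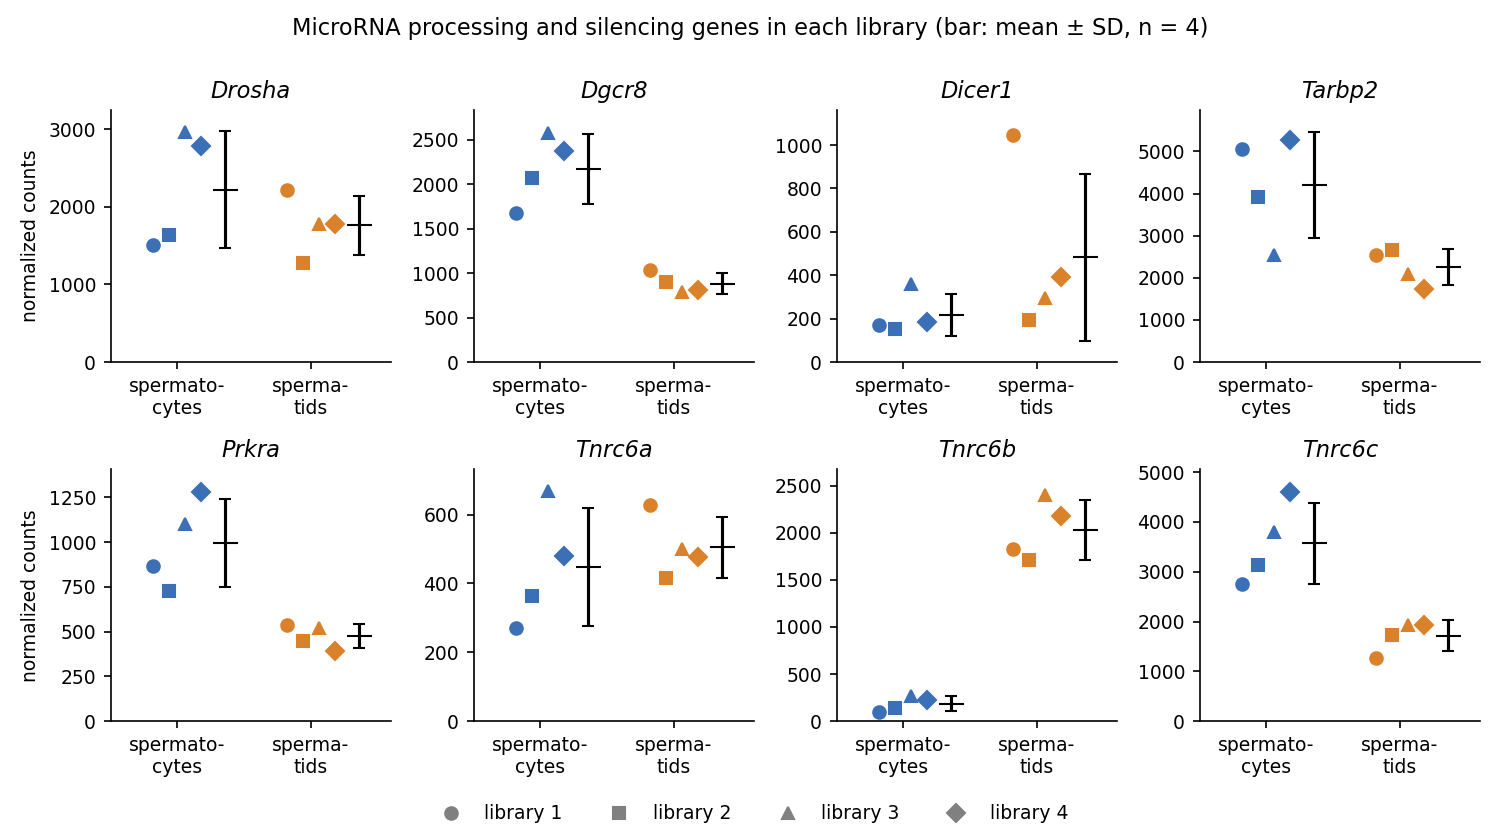
Normalized counts of the 8 genes in each library, with spermatocytes in blue, spermatids in orange, 1 point shape per library number and a bar for the mean ± SD of 4 libraries. Tnrc6b lies at 94.3 to 267 in spermatocytes and 1711 to 2406 in spermatids, and Dgcr8, Prkra and Tnrc6c lie lower in every spermatid library than in any spermatocyte library.

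Of the Microprocessor pair, Dgcr8 RNA fell while Drosha RNA overlapped between the cell types. Dgcr8 (model GSMG0015518, chr16:18253950-18289215, mm10) gave 1672, 2072, 2580 and 2369 normalized counts in the 4 spermatocyte libraries, in numerical order, and 1037, 900, 785 and 805 in the 4 spermatid libraries. Every spermatid library lay below every spermatocyte library. The means were 2173 ± 394 and 882 ± 115 (SD, n = 4), 2.46-fold lower in spermatids, with a log2 fold change of -1.29 ± 0.19 (SE; limma adjusted p = 6.1e-05). Leaving out single libraries gave -1.41 to -1.20, and Dgcr8 was called lower under every setting run.

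Drosha (GSMG0012994, chr15:12824815-12935290), the catalytic subunit, gave 1509, 1643, 2960 and 2779 in spermatocytes and 2212, 1275, 1783 and 1777 in spermatids. Spermatocyte libraries 3 and 4 were the highest of the 8, and libraries 1 and 2 lay inside the range of the spermatids. The log2 fold change was -0.30 ± 0.26 (SE; limma adjusted p = 0.32), and it was 0.14 without spermatocyte libraries 3 and 4.

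The log2 ratio of Drosha to Dgcr8 within a library does not depend on the size factor. It was -0.01 ± 0.27 (SD, n = 4) in spermatocytes and 0.98 ± 0.32 in spermatids, and the ranges did not overlap. The difference of 0.99 had an exact two-sided permutation p of 0.0286, the smallest that 4 against 4 libraries allow, and 0.034 after adjustment over the 6 pairs compared. Spermatids thus held more Drosha reads relative to Dgcr8 reads in 4 of 4 libraries.

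The Dgcr8 model also contains microRNA hairpins, and the Microprocessor is known to cut its own DGCR8 mRNA at such hairpins. RefSeq (GRCm38.p6) places Mir1306 whole within coding sequence and the miR-3618 hairpin within the 5′ untranslated region, both on the strand of the gene. Their mature sequences are shown because reads from the host mRNA and from these hairpins share one model, and capitals mark the seed, bases 2 to 8.
miR-1306-5p (chr16:18284288-18284310, minus strand): cACCACCUccccugcaaacgucc
miR-1306-3p (chr16:18284248-18284268, minus strand): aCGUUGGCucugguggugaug
miR-3618-5p (chr16:18284602-18284623, minus strand): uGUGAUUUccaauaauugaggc
miR-3618-3p (chr16:18284562-18284583, minus strand): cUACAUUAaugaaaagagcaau
Each of these seeds occurred in 1 mature microRNA of the table, so that none of the 4 shares its seed with another. MicroRNAs themselves were not measured by these libraries of polyadenylated RNA. The neighbouring Trmt2a overlaps 823 bases of Dgcr8 at its 3′ end, in the 3′ untranslated region, and the strand setting of the counting is not given in the sources used here. Trmt2a, a tRNA methyltransferase gene, had a log2 fold change of -0.10 ± 0.23 (SE; limma adjusted p = 0.71).

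Dicer1 RNA varied most between libraries, with a coefficient of variation of 44.6% in spermatocytes and 79.8% in spermatids, and was not called. Dicer1 (GSMG0009262, chr12:104687742-104751959) gave 172, 151, 361 and 185 in spermatocytes and 1047, 193, 297 and 393 in spermatids. Spermatid library 1 stood far above the other 3, and spermatocyte library 3 stood above its own group and inside the range of the spermatids. The means were 217 ± 97.0 and 483 ± 385 (SD, n = 4), and the log2 fold change of 0.94 ± 0.46 (SE) was not called, with a limma adjusted p of 0.086. Without spermatid library 1 it was 0.47 (adjusted p = 0.27), and without spermatocyte library 3 it was 1.21 (adjusted p = 0.035), which is a call. Without spermatid library 2 it was 1.28 (adjusted p = 0.025). Count tests on the recovered reads called Dicer1 higher, at 1.20 with edgeR (adjusted p = 0.032) and 1.16 with DESeq2 (adjusted p = 0.021), where these tools called 32.3% and 32.1% of all models higher.

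Both Dicer1 extremes fell in libraries that also stood apart for markers of other cells. Spermatid library 1 had the highest mean log2 level of macrophage markers, 9.11 against 8.18 to 8.83 in the other 3, and of spermatogonial markers, 8.43 against 7.24 to 7.62. It also had the most Dmc1, a meiotic recombinase gene, at 1800 normalized counts against 445 to 952. The mean log2 level of spermatocyte markers was highest there among spermatids as well, 12.82 against 12.38 to 12.54, although their summed level was lowest, 373098 against 434888 to 481140. Most of that sum was Ldhc (231492) and Ybx3 (102472), which were not called between the cell types. Round spermatid markers had their lowest mean log2 level among spermatids there, 15.18 against 15.31 to 15.55. Spermatocyte library 3 had the highest mean log2 level of Sertoli cell markers, 11.28 against 9.04 to 10.07. Its mean log2 levels of macrophage, peritubular myoid, round spermatid and spermatocyte markers, 5.18, 7.98, 10.73 and 13.81, were also the highest among spermatocytes. The part of these other RNAs in the Dicer1 values was not tested.

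The log2 ratio of Dicer1 to Drosha, the 2 RNase III enzymes of the pathway, was -3.37 ± 0.39 (SD, n = 4) in spermatocytes and -2.14 ± 0.74 in spermatids. The ranges did not overlap, the difference was 1.24, and the exact permutation p was 0.0286 (0.034 over the 6 pairs). Without spermatid library 1 the difference was 0.88.

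The RNAs of both Dicer partners were lower on average in spermatids. Prkra (GSMG0023008, chr2:76629937-76648020), which encodes PACT, gave 867, 729, 1103 and 1282 in spermatocytes and 536, 450, 519 and 394 in spermatids. All spermatid libraries lay below all spermatocyte libraries, and Prkra fell 2.09-fold, with a log2 fold change of -1.04 ± 0.22 (SE; limma adjusted p = 0.0011). The fold lay close to the threshold: it was -0.98 without spermatocyte library 3, -0.91 without spermatocyte library 4 and -0.96 without spermatid library 4, none of which is a call.

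Tarbp2 (GSMG0013697, chr15:102518192-102523674), which encodes TRBP, gave 5069, 3917, 2537 and 5264 in spermatocytes and 2547, 2650, 2084 and 1726 in spermatids. Spermatocyte library 3 was the lowest of its group and lay inside the range of the spermatids. Among spermatocytes it had the highest mean log2 level of Sertoli cell markers and of several other marker lists. The log2 fold change was -0.86 ± 0.25 (SE), below the fold threshold although the limma adjusted p was 0.0072. Without spermatocyte library 3 it was -1.09 and the gene was called. It was also called at -1.30 with equal total reads and at -1.26 with quantile normalization, where 37.4% and 36.3% of all models were called lower. With the GC content trend removed it was -0.57.

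The log2 ratio of Tarbp2 to Prkra was 2.05 ± 0.61 (SD, n = 4) in spermatocytes and 2.23 ± 0.24 in spermatids. These ranges overlapped, and the difference of 0.18 did not pass the exact permutation test (p = 0.7143, 0.714 over the 6 pairs). It was -0.10 without spermatocyte library 3, so its direction rested on that library.

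**Figure D2:**
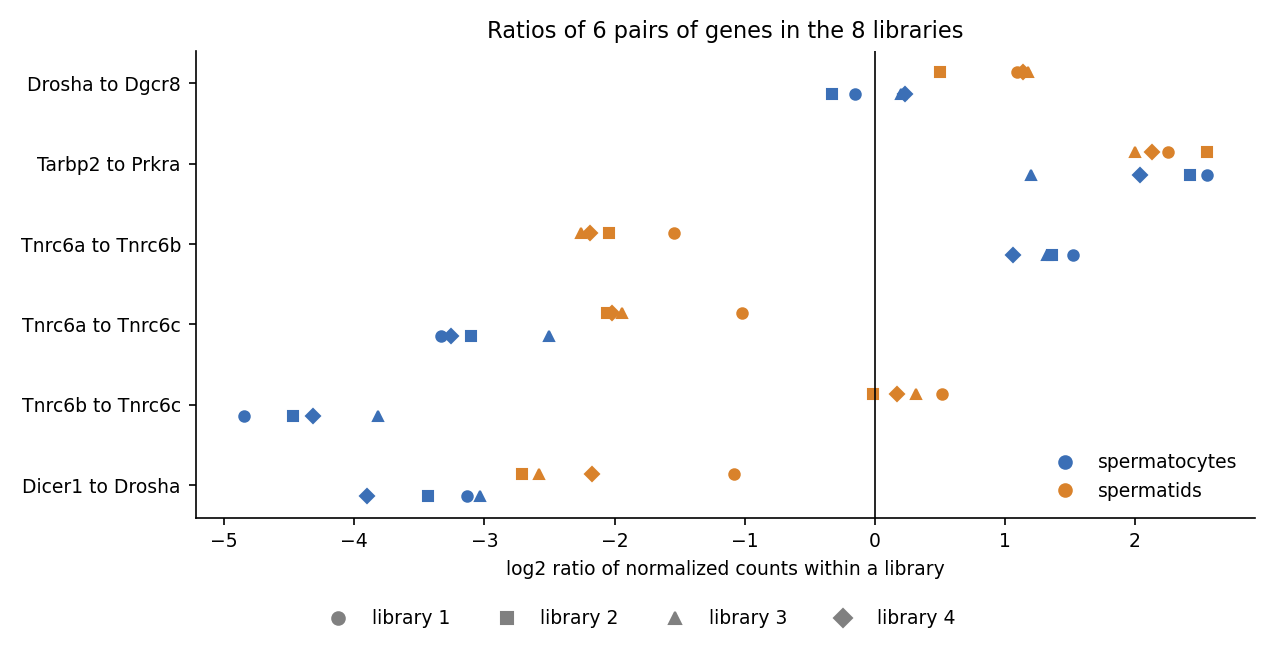
Log2 ratios of normalized counts for 6 pairs of the genes, 1 point per library, spermatocytes in blue and spermatids in orange. The cell types are apart for 5 pairs and overlap for Tarbp2 to Prkra, and the Tnrc6b to Tnrc6c ratio lies at -4.85 to -3.82 in spermatocytes and -0.01 to 0.52 in spermatids.

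Among the 3 GW182 paralogs Tnrc6b rose and Tnrc6c fell, while Tnrc6a did not pass the test. Per kilobase of exon Tnrc6c was still above Tnrc6b in every spermatid library. In undivided counts the log2 ratio of Tnrc6b to Tnrc6c was -0.01 to 0.52 there, so that this order depends on the exon lengths used. Tnrc6b (GSMG0013399, chr15:80711312-80941086) gave 94.3, 141, 267 and 229 normalized counts in spermatocytes and 1826, 1711, 2406 and 2176 in spermatids. Each spermatid library exceeded every spermatocyte library several times over. The means were 183 ± 79.3 and 2030 ± 319 (SD, n = 4), 11.1-fold higher in spermatids, with a log2 fold change of 3.56 ± 0.31 (SE; limma adjusted p = 6.0e-07). Leaving out single libraries gave 3.28 to 3.78, and Tnrc6b was called higher under every setting run. In absolute size this change lay at percentile 77.2 of all models tested.

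Tnrc6c (GSMG0006158, chr11:117654289-117763437) gave 2745, 3146, 3800 and 4603 in spermatocytes and 1270, 1729, 1922 and 1935 in spermatids. The groups did not overlap, and spermatid library 1 was the lowest of all. Tnrc6c fell 2.09-fold, with a log2 fold change of -1.05 ± 0.21 (SE; limma adjusted p = 6.7e-04). Like Prkra it lay close to the fold threshold and was not called without spermatocyte library 4 (-0.92) or without spermatid library 1 (-0.91). Nor was it called with the GC content trend removed (-0.88), where 21.3% of models with a known GC content were called lower.

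Tnrc6a (GSMG0035139, chr7:123123885-123195288) gave 272, 365, 670 and 481 in spermatocytes and 627, 415, 500 and 477 in spermatids. The groups overlapped widely, with spermatocyte library 3 the highest of the 8. The log2 fold change was 0.24 ± 0.28 (SE; limma adjusted p = 0.46), and its sign turned with equal total reads (-0.20) and with quantile normalization (-0.12).

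The summed counts of the 3 paralogs were 4204 ± 1002 (SD, n = 4) in spermatocytes and 4248 ± 542 in spermatids, a difference smaller than the spread between libraries. To compare the paralogs with each other, counts were divided by the length of all annotated exons in kilobases. That length was 23677 bases for Tnrc6b, 12843 for Tnrc6c and 12706 for Tnrc6a. The transcripts in use are not known, and the shares below depend on these lengths. The sum of these values was 321 ± 75.6 (SD, n = 4) in spermatocytes and 259 ± 31.5 in spermatids, with overlapping ranges of 239 to 406 and 225 to 291. On that scale Tnrc6c made up 86.9% ± 3.20 (SD, n = 4) of the 3 in spermatocytes and 51.3% ± 5.32 in spermatids. Tnrc6b made up 2.33% ± 0.615 and 33.0% ± 2.11, and Tnrc6a made up 10.8% ± 2.60 and 15.6% ± 4.20. No library of one cell type reached the other's range for the shares of Tnrc6b or Tnrc6c, whereas the ranges for Tnrc6a met, 8.96% to 14.6% and 13.4% to 21.9%.

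**Figure D3:**
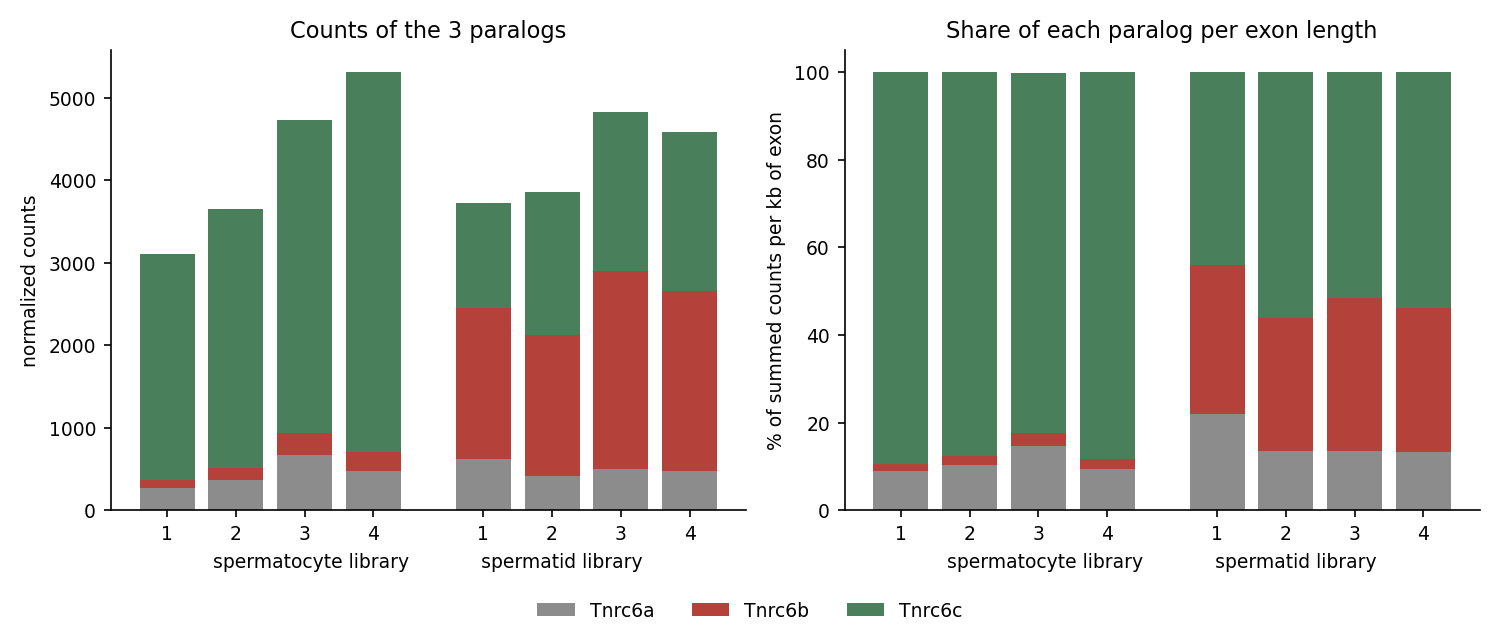
Left, stacked normalized counts of Tnrc6a, Tnrc6b and Tnrc6c in each of the 8 libraries; right, the share of each in the sum after division by exon length in kilobases. The stacks reach 3112 to 5313 in spermatocytes and 3723 to 4828 in spermatids, and the Tnrc6b part grows from 1.67% to 3.14% of the sum per kilobase to 30.2% to 35.0%.

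The ratios within a library restate the same counts without the size factor. Each of these log2 ratios follows from the others, so they are not separate results. The log2 ratio of Tnrc6b to Tnrc6c was -4.37 ± 0.42 (SD, n = 4) in spermatocytes and 0.25 ± 0.23 in spermatids, a difference of 4.62. That of Tnrc6a to Tnrc6b was 1.32 ± 0.19 and -2.01 ± 0.33, a difference of -3.33. That of Tnrc6a to Tnrc6c was -3.05 ± 0.38 and -1.76 ± 0.50, a difference of 1.29. None of these 3 pairs overlapped between the cell types, and each had an exact permutation p of 0.0286 (0.034 over the 6 pairs).

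The regions before the paralogs' starts are shown because these genes of 1 family moved in different directions. RefSeq (GRCm38.p6) gives 2 starts for Tnrc6b and 1 each for Tnrc6c and Tnrc6a. Each line holds the 250 bases before a start, all on the plus strand, with motif matches in capitals.
Tnrc6b, upstream start (chr15:80711063-80711312): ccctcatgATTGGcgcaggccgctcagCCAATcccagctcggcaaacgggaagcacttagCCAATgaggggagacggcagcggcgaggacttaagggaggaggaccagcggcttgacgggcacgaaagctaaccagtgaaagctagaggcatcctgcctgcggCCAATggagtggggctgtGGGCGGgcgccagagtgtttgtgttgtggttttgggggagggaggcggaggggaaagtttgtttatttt
Tnrc6b, downstream start (chr15:80798360-80798609): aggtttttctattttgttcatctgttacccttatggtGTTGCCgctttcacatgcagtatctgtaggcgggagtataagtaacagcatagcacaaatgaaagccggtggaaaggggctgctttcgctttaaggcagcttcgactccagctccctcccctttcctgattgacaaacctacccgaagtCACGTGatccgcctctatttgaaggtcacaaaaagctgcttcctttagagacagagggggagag
Tnrc6c (chr11:117654039-117654288): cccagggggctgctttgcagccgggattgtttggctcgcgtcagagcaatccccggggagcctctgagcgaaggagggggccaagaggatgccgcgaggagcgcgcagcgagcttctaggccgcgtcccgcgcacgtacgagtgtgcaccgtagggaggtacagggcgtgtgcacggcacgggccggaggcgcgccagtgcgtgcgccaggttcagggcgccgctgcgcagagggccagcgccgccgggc
Tnrc6a (chr7:123123635-123123884): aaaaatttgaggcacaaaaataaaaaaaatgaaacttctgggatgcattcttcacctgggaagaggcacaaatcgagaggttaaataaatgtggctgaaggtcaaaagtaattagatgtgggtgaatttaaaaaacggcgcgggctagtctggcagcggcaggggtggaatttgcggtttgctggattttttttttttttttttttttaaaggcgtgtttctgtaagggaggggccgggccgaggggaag
Motifs were searched on both strands of the 300 bases from 250 before to 50 after each start: the CREB site TGACGTCA, the GC box GGGCGG, the TATA box TATAAA, the CCAAT box, the RFX site GTTGCC, the E-box CACGTG and the NRF1 palindrome. No 2 matches of different motifs overlap in these 4 windows. The upstream Tnrc6b window held 4 CCAAT boxes and 1 GC box, and the downstream window held 1 RFX site and 1 E-box. The Tnrc6c and Tnrc6a windows held no match to any of these motifs. Over 32817 promoters of the same length, 37.4% held a CCAAT box, 35.6% a GC box, 12.5% an RFX site and 7.15% an E-box. A CREB site was in 1.79%, a TATA box in 13.6% and the NRF1 palindrome in 0.966%. The Tnrc6c window had 40 CpG dinucleotides, the upstream Tnrc6b window 18, the Tnrc6a window 11 and the downstream Tnrc6b window 9, where the median promoter had 7. The gene-level counts do not tell which Tnrc6b start was used.

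Tnrc6b also had the longest annotated 3′ untranslated region of the 8 genes, up to 11609 bases in GENCODE M21, with 532 in the shortest coding transcript. The others had 169 (Drosha) to 3851 bases (Dicer1) at the longest. The microRNA miR-5113 lies in that region of Tnrc6b, and its mature sequence is given as the one microRNA of the table within a TNRC6 gene, with the seed in capitals.
miR-5113 (chr15:80940049-80940071, plus strand): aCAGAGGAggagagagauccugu
Within the Tnrc6b span the table also lists an unnamed model, GSMG0014271, at chr15:80916681-80919833, which overlaps part of a coding exon. It gave 4.03, 5.89, 15.7 and 24.0 in spermatocytes and 138, 142, 213 and 197 in spermatids, and its log2 fold change was 3.96 ± 0.49 (SE; limma adjusted p = 1.3e-05). This model rose with Tnrc6b and may share reads with it, and at 173 ± 38.2 (SD, n = 4) in spermatids it is small beside the Tnrc6b mean of 2030. An intronic unnamed model, GSMG0013404 at chr15:80890294-80893150, rose as well, by 3.10 on the log2 scale (limma adjusted p = 2.7e-04), at no more than 24.0 normalized counts.

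Per kilobase of exon, the 8 genes fell into an upper and a lower set in spermatocytes. The order was Tarbp2 at 923 normalized counts per kilobase, Prkra at 491, Drosha at 374, Dgcr8 at 282 and Tnrc6c at 278, followed by Tnrc6a at 35.2, Dicer1 at 13.0 and Tnrc6b at 7.73. Of the neighbours in this order, only Tnrc6c and Tnrc6a had ranges that did not overlap. In spermatids the order was Tarbp2 at 495, Drosha at 297, Prkra at 234, Tnrc6c at 133, Dgcr8 at 115, Tnrc6b at 85.7, Tnrc6a at 39.7 and Dicer1 at 28.8. There Tarbp2 and Drosha, Prkra and Tnrc6c, Dgcr8 and Tnrc6b, and Tnrc6b and Tnrc6a were apart, and the other neighbours overlapped. Tnrc6b moved from the last place to the third lowest, and Dicer1 became the lowest.

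The other genes of the pathway were read from 6 lists with 65 genes, all found in the table and tested. Of these, 10 rose, 17 fell and 38 were not called, beside 32.5% of all models called higher and 29.8% called lower. The median log2 fold change of the 65 genes was -0.31. Over models with a known GC content, 35.3% were called higher and 21.1% lower, with a median of 0.25. Of the 4 Argonaute genes 3 fell, beside 29.8% of all models. Ago2, the Argonaute with slicer activity, had 576 ± 186 normalized counts (SD, n = 4) in spermatocytes and 152 ± 74.7 in spermatids, a log2 fold change of -2.00 ± 0.38 (SE; limma adjusted p = 4.2e-04). Ago4 fell from 2844 ± 195 to 707 ± 44.6, by 2.01 on the log2 scale (limma adjusted p = 2.9e-07), and Ago3, read from the more abundant of 2 models, fell by 1.35 (limma adjusted p = 3.3e-04). The Ago3 model read spans only chr4:126332736-126338615, shorter than the other Argonaute models, and may hold only part of the gene. Values of the other Ago3 model are not given here. Ago1 had a log2 fold change of 0.03, and its sign turned with equal total reads (-0.41). The Argonaute list had a median of -1.67, the lowest of the 6 lists.

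Of 14 accessory proteins of the Microprocessor 6 fell and 1 rose, beside 29.8% and 32.5% of all models (median -0.75). Srrt, which links capped transcripts to the Microprocessor, fell by 2.21 on the log2 scale, from 20838 ± 4508 (SD, n = 4) to 4446 ± 391 (limma adjusted p = 3.3e-07). Tardbp fell by 1.90, and Srsf3 fell by 1.66. Fto, an RNA demethylase, rose by 1.46, from 2696 ± 750 to 7212 ± 832 (limma adjusted p = 7.6e-05). None of the 4 nuclear export genes was called (median -0.02), and the most abundant, Ran, the GTPase that drives export, had 11465 ± 2817 and 11307 ± 1774.

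Of 11 genes of precursor and mature microRNA tailing and decay 5 rose and 1 fell, beside 32.5% and 29.8% of all models (median 0.94). Dis3l2, an exonuclease of uridylated precursors, rose from 2234 ± 362 (SD, n = 4) to 10167 ± 1991, by 2.18 on the log2 scale (limma adjusted p = 9.4e-07). Xrn2, a nuclear exonuclease, rose by 2.02. The relatives Lin28a and Lin28b, which bind let-7 precursors, went in opposite directions, at 1.87 and -1.41 (limma adjusted p = 0.0017 and 0.0013). Lin28a stayed at low counts, with 192 ± 79.2 in spermatids.

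Of 25 silencing partners of Argonaute and GW182, 4 rose and 6 fell, beside 32.5% and 29.8% of all models (median -0.36). Fmr1, an X-linked gene for an RNA-binding protein, rose by 3.29 on the log2 scale, from 126 ± 81.4 (SD, n = 4) to 1098 ± 416 (limma adjusted p = 2.3e-05). Edc4, a scaffold of the decapping complex, fell by 2.64 on the same scale, from 38409 ± 7697 to 6161 ± 1111 (limma adjusted p = 1.7e-07). Ddx6, a helicase of repressed mRNPs, fell by 2.16, and Cnot8, a deadenylase, fell by 2.30. The deadenylase partners Pan2 and Pan3 had opposite calls, at -1.73 and 1.08 (limma adjusted p = 3.6e-06 and 6.4e-04). Of 7 genes for Argonaute loading and import 1 was called lower, beside 29.8% of all models (median -0.39): the importin gene Ipo8 fell by 2.21 (limma adjusted p = 1.9e-05).

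**Figure D4:**
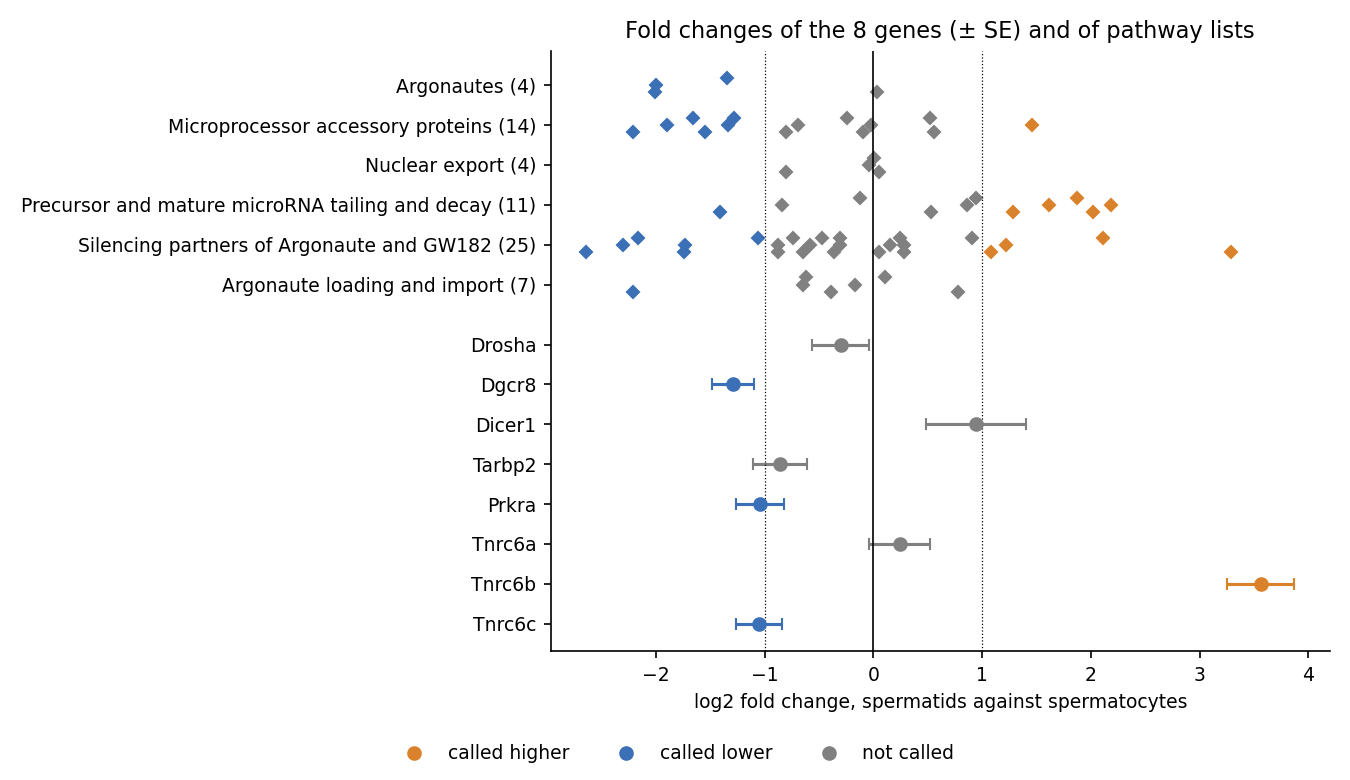
Log2 fold changes of spermatids against spermatocytes for the 8 genes (circles with SE) and for the 65 other pathway genes by list (diamonds), coloured by call, with dotted lines at -1 and 1. Tnrc6b at 3.56 lies above every other gene drawn, and 3 of 4 Argonaute genes lie at -1.35 or lower.

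The genes whose profile over the 8 libraries was nearest to each of the 8 were found among 8069 named models with a mean of at least 500 normalized counts, by the root mean square difference of centred log2 values. Zfp142 (0.08) and Polr2j (0.10), which encodes a subunit of RNA polymerase II, were nearest to Drosha. Fam53a (0.08) and Naa35 (0.09) were nearest to Dgcr8, Oxa1l (0.08) and Snapc2 (0.10) to Prkra, and Tmem115 (0.11) and Cdpf1 (0.11) to Tarbp2. Stub1 (0.10) and Nabp2 (0.11) lay nearest to Tnrc6c, and Fbxo18 (0.11) and Ythdf1 (0.12), a reader of methylated adenosine in mRNA, nearest to Tnrc6a. For Tnrc6b these were Myo5b (0.15), with a log2 fold change of 3.73, and the X-linked Gripap1 (0.16), with 3.66. Dicer1 had no close neighbour among these candidates by this measure: the nearest, Scap, differed by 0.30 and the next, BC055324, by 0.31. Its own means, 217 in spermatocytes and 483 in spermatids, lay below the 500 asked of candidates, so genes at its level were not compared.

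Marker lists were set beside the 8 genes library by library. In spermatocyte library 3 the mean log2 levels of Sertoli cell, macrophage, peritubular myoid, round spermatid and spermatocyte markers were the highest among spermatocytes. This library also had the fewest recovered reads of the 8, 49000266. Drosha, Dgcr8, Dicer1, Tnrc6a and Tnrc6b were at their highest among spermatocytes there, and Tarbp2 was at its lowest. Spermatocyte library 4 had the lowest mean log2 level of spermatocyte markers. Their summed level, mostly Ldhc, Ybx3 and Piwil1, was highest in that library, 633032 against 517850 to 625741. Tarbp2, Prkra and Tnrc6c were at their highest among spermatocytes there, and neither Prkra nor Tnrc6c was called without that library. In spermatid library 1 the mean log2 levels of macrophage, spermatogonial, peritubular myoid, Leydig cell and spermatocyte markers were the highest among spermatids. That of round spermatid markers was the lowest. Drosha, Dgcr8, Dicer1, Prkra and Tnrc6a were at their highest among spermatids in that library, and Tnrc6c was at its lowest. By summed level, in which Actg2 dominates, myoid markers were lowest in that library, at 17442. Summed spermatocyte markers, in which Ldhc and Ybx3 dominate, were lowest there too, at 373098. The log2 fold change of Tnrc6b was 3.78 without spermatocyte library 3 and 3.61 without spermatid library 1, and that of Dgcr8 was -1.20 and -1.37. The part of other cell types in the values of the 8 genes was not tested.

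**Figure D5:**
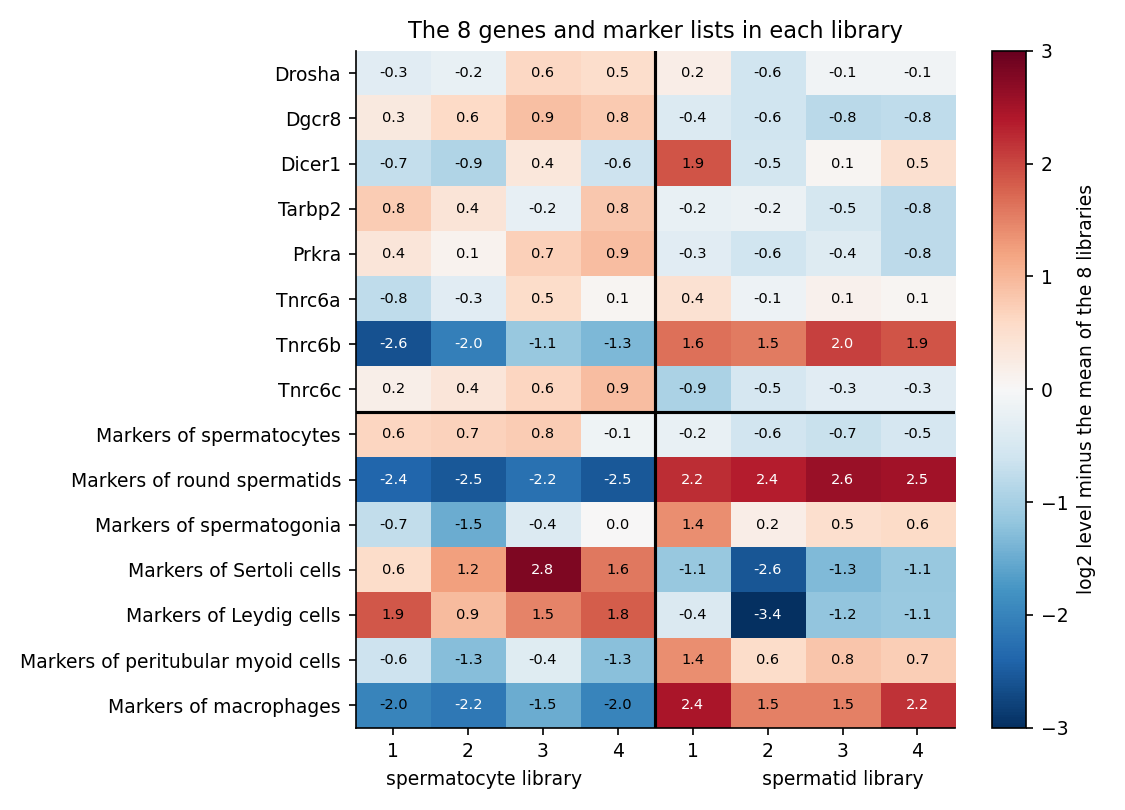
Log2 level of each of the 8 genes, and mean log2 level of 7 marker lists, in each library, as the difference from the mean of the 8 libraries (red above, blue below, values printed to 1 decimal). Markers of round spermatids and macrophages are above their mean in all 4 spermatid libraries, and markers of Sertoli cells in all 4 spermatocyte libraries.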

How the data were processed

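Polyadenylated RNA of 4 spermatocyte and 4 spermatid libraries was sequenced by the authors. The deposited signal holds read counts that the authors had scaled by 1 factor for each library. Per the submitters' processing notes, STAR 2.4.0, SAMtools, Picard, FastQC and DESeq were used with mm10. How reads were counted, with or without strand, and whether models were filtered is not given in the sources used here, so reads of overlapping genes may be mixed. Another 8 columns of per-sample values were not used. In each library 100% of the deposited values above 0 lay within 10% of a fixed step from a whole read count, and the reads so recovered were used for count tests.

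The 28735 of 56324 models that reached 10 normalized counts in 4 or more libraries were tested as log2(normalized count + 1) with limma 3.58.1 (trend and robust moderation, R 4.3.3), adjusted by Benjamini-Hochberg over all models tested. Fold changes are on that scale, and the added 1 understates those of low genes. Ratios of 6 pairs were compared by exact two-sided permutation. No 2 libraries agreed within counting noise. Exon lengths are from GENCODE M21 and sequences from RefSeq (GRCm38.p6), and all 8 genes matched both by symbol. Floors cover counting error only.

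The 8 genes, the 6 pairs and the lists of pathway and marker genes were chosen with earlier results of these data known. Genes named beyond the 8 are Khdrbs1, the 4 Argonautes, the largest rise and fall of each list (the most abundant gene where none was called) and the 2 nearest profiles of each gene; Tardbp, Srsf3, Xrn2, Lin28a, Ddx6, Cnot8, Pan2, Pan3, Trmt2a, the unnamed models and single markers were named after their values were seen. Alternatives were other pseudocounts, filters and scalings, limma without trend and robust moderation, edgeR 4.0.16, DESeq2 1.42.0, a GC correction, calls at any fold change, and leaving out libraries.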

Additional observations from a re-analysis of the deposited data

Results flagged for a closer look

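Of 74 groups of 4 libraries that were checked for a single library far from the other 3, 6 had one, where chance gives about 1 in 20 groups. The groups are not independent, because they include the genes nearest in profile to the 8, such as Naa35, Ythdf1 and Nabp2. That chance rate is therefore only a rough guide. Of the 6, 1 was among the 8 genes: Dicer1 was 361 normalized counts in spermatocyte library 3 against 151 to 185 in the other 3. Srrt was 27587 in spermatocyte library 4 against 18220 to 18830. Spermatid library 1 stood apart for the other 4 genes: Ipo8 was 178 against 84.1 to 94.7, Naa35 was 3544 against 2728 to 2809, Ythdf1 was 1900 against 1116 to 1228, and Nabp2 was 847 against 1327 to 1414. The Dicer1 value of 1047 in that library did not reach the limit, since its gap was 0.77 of the group's range.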

How the results depend on the processing

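No paired analysis was possible because the labels give no replicate numbers. Dgcr8 and Tnrc6b kept their calls under all 23 alternatives. Without single libraries, 1 or 2 of the 8 genes were called higher and 1 to 3 lower. All models then gave 9096 to 9376 higher (31.7% to 32.6%) and 8339 to 8690 lower (29.0% to 30.2%). With edgeR, with DESeq2 and without spermatocyte libraries 3 and 4, 2 genes were called higher, Dicer1 being added. These settings called 32.3%, 32.1% and 32.7% of all models higher. Without spermatocyte libraries 3 and 4 neither Prkra (-0.75) nor Tnrc6c (-0.80) was called and Tarbp2 was, beside 29.4% of all models called lower. The log2 fold change was then 0.14 for Drosha, 0.07 for Zfp142, 0.11 for Polr2j and -0.17 for Ran.

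Models called lower numbered 14333 with no filter and 5470 with a filter of 50 normalized counts, as more or fewer models were tested. Over models with a known GC content 6004 were called higher and 3586 lower, and with the GC trend removed 6056 and 3629, so that 62.6% and 62.5% of calls were higher, against 52.2% over all models, 42.6% with equal total reads and 44.5% with quantile normalization. Pathway genes called lower were 28 when totals were made equal, 26 after quantile normalization and 26 at any fold change, beside 37.4%, 36.3% and 35.8% of all models. Under these 2 scalings, in that order, the sign turned for Tnrc6a (-0.20 and -0.12), Ago1 (-0.41 and -0.33), Ran (-0.43 and -0.57), Fbxo18 (-0.26 and -0.18) and Ythdf1 (-0.27 and -0.18). The GC correction gave -0.03 for Ran and 0.06 for Polr2j, and edgeR and DESeq2 gave -0.01 for Ran. Without single libraries Ago1 gave -0.07 to 0.15, Ran -0.19 to 0.11, Fbxo18 -0.04 to 0.42 and Ythdf1 -0.01 to 0.42. The cause was not tested.

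The differences in log2 ratio without single libraries were 0.89 to 1.15 for Drosha to Dgcr8, -3.48 to -3.24 for Tnrc6a to Tnrc6b, 1.04 to 1.47 for Tnrc6a to Tnrc6c, 4.45 to 4.80 for Tnrc6b to Tnrc6c, 0.88 to 1.43 for Dicer1 to Drosha and -0.10 to 0.35 for Tarbp2 to Prkra. With 7 libraries the first 5 had an adjusted exact permutation p of 0.069. Before adjustment each was at the smallest p that 3 against 4 libraries allow. Without spermatocyte libraries 3 and 4 these 5 differences were 1.22, -3.45, 1.46, 4.91 and 1.14 (adjusted exact permutation p = 0.160), and Tarbp2 to Prkra was -0.25. The 0.160 likewise comes from the smallest unadjusted p possible there.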
